A study of Sus scrofa domesticus with 4 samples.

Results

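The genes described here build the MHC class I pathway, by which nearly every nucleated cell displays peptides from its own proteins on its surface. They were chosen by name, with earlier results of these data known. The 10 pig genes were SLA-1, SLA-2, SLA-3, SLA-6 and SLA-7, which encode class I heavy chains, B2M, TAP1, TAPBP, PSMB8 and PSMB9. Array probes were assigned to them through the RefSeq accession that each probe carries. Of 43603 probes on the array, 18 carried an accession of 7 of these genes, among 3029 genes named by any probe. SLA-3 had 7 probes, PSMB8 had 3, and B2M, TAP1 and PSMB9 had 2 each, while SLA-6 and SLA-7 had 1 each. No probe carried an accession of SLA-1, SLA-2 or TAPBP, and these genes were not analysed here.

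In this pathway the proteasome cuts cytosolic proteins into peptides, and under interferon-gamma the immunoproteasome subunits PSMB8 and PSMB9 take the place of standard catalytic subunits. The TAP transporter, a dimer of TAP1 and TAP2, carries the peptides into the endoplasmic reticulum, where tapasin and other chaperones load them onto a class I heavy chain paired with beta-2 microglobulin, the product of B2M. Interferons induce most of these genes, and pig conceptuses secrete interferons around the time of attachment to the uterus. In pigs SLA-1, SLA-2 and SLA-3 are the classical, highly polymorphic heavy chain genes, while SLA-6, SLA-7 and SLA-8 are nonclassical.

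The tissue was the anterior pituitary of 8 mature gilts (female pigs before a first litter), Large White x Polish Landrace crosses from a private farm. The pregnant group held 4 gilts on days 15 to 16 of early pregnancy, mated naturally, with conceptuses found at slaughter, and the cyclic group held 4 gilts on days 15 to 16 of the estrous cycle. RNA of 1 pregnant gilt was hybridised against RNA of 1 cyclic gilt on each of 4 two-colour Agilent arrays, so a replicate is an array with its pair of animals. By the samples' label fields the pregnant animal had Cy3 on arrays 1 and 3, with the dyes exchanged on arrays 2 and 4, while the text of the labelling protocol names Cy3 for all pregnant animals. The label fields were followed, and estimates under the other reading are given where they differ in sign.

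All ratios are log2 of pregnant over cyclic, each estimate with the standard error of a limma fit over 4 arrays that also holds a dye effect for each probe. Between 50.5% and 60.5% of probes were well above background in the pregnant animals, and between 52.6% and 66.6% in the cyclic animals. No probe was saturated (0 on each array). Correlations of ratios between arrays, across tested probes, lay between -0.22 for arrays 2 and 3 and 0.31 for arrays 2 and 4. The hormone genes PRL, GH1, POMC, LHB, FSHB, TSHB and CGA defining the labelled tissue were well above background in all 8 channels. So was OXT, a hormone gene of the posterior lobe, whereas its relative AVP did not pass the filter on dim probes. The number of arrays limits the precision of every value.

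Of the 18 probes 17 were tested, which required that 4 or more of the 8 channels exceed background clearly. The immunoproteasome probes had ratios above 0 and most heavy chain probes had ratios below 0. All 5 probes of PSMB8 and PSMB9 had an estimate above 0, as did 47.6% of all tested probes. Of the 20 single-array values of these 5 probes 19 were above 0, but they repeat the same 4 pairs of animals. Of the 8 tested probes of SLA genes 6 had an estimate below 0. The median ratio was -0.41 for the 7 SLA-3 probes and 0.25 for the 9 probes of B2M, TAP1, PSMB8 and PSMB9, beside -0.0096 for all 25203 tested probes. The SLA-3 median was -0.25 without array 1, -0.14 without array 2, -0.56 without array 3 and -0.68 without array 4. Here and below, fits with 1 array left out kept the dye effect. In them the array left alone in its dye orientation weighed as much as both arrays of the other orientation together. Shifts in these fits therefore hold that weighting as well as the loss of an array. They also have fewer residual degrees of freedom than the 2 of the full fit. With the pregnant animal in Cy3 on all arrays, a reading that leaves no dye effect to fit, the SLA-3 median was 0.18, the median of the other 9 probes was 0.06 and 2 of the 8 SLA probes were below 0.

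After Benjamini-Hochberg adjustment over all tested probes, 0 of the 17 reached 0.05 in the limma fit (smallest adjusted p = 0.605), beside 0% of all tested probes. An unadjusted p under 0.05 was found for 6 of the 17, beside 8.03% of all tested probes. A looser rule, a fold of 1.2 or more in either direction together with an unadjusted p below 0.05, was met by 6 of 17 member probes, from 4 genes. Among all tested probes 7.87% passed that rule, 3.35% as higher and 4.52% as lower in pregnant animals. The 6 were 3 probes higher in pregnant animals, of PSMB8 and PSMB9, and 3 lower, of SLA-3 and SLA-6. Probes of 1 gene share a target, so the 6 are not 6 independent observations. The genes were also chosen with earlier results of these data known, so these shares are no test of the set. The number of member probes meeting the looser rule was 1 without array 1, 3 without array 2, 5 without array 3 and 6 without array 4. Over all 25203 tested probes the number was 928, 965, 2322 and 3247 in the same order, against 1983 with all 4 arrays. The member calls were 0 higher and 1 lower without array 1, and 2 higher and 1 lower without array 2. They were 1 higher and 4 lower without array 3, and 1 higher and 5 lower without array 4. With arrays centred on their median in place of loess 3 member probes met the rule, 0 higher and 3 lower, beside 1674 of all tested probes. Under that scaling 21.3% of the calls over all probes were higher, against 42.6% with loess. Without array 2 that share was 59.3%, and without array 4 it was 32.8%. In these bulk samples fewer cells of a type and less RNA per cell cannot be told apart.

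**Figure D1:**
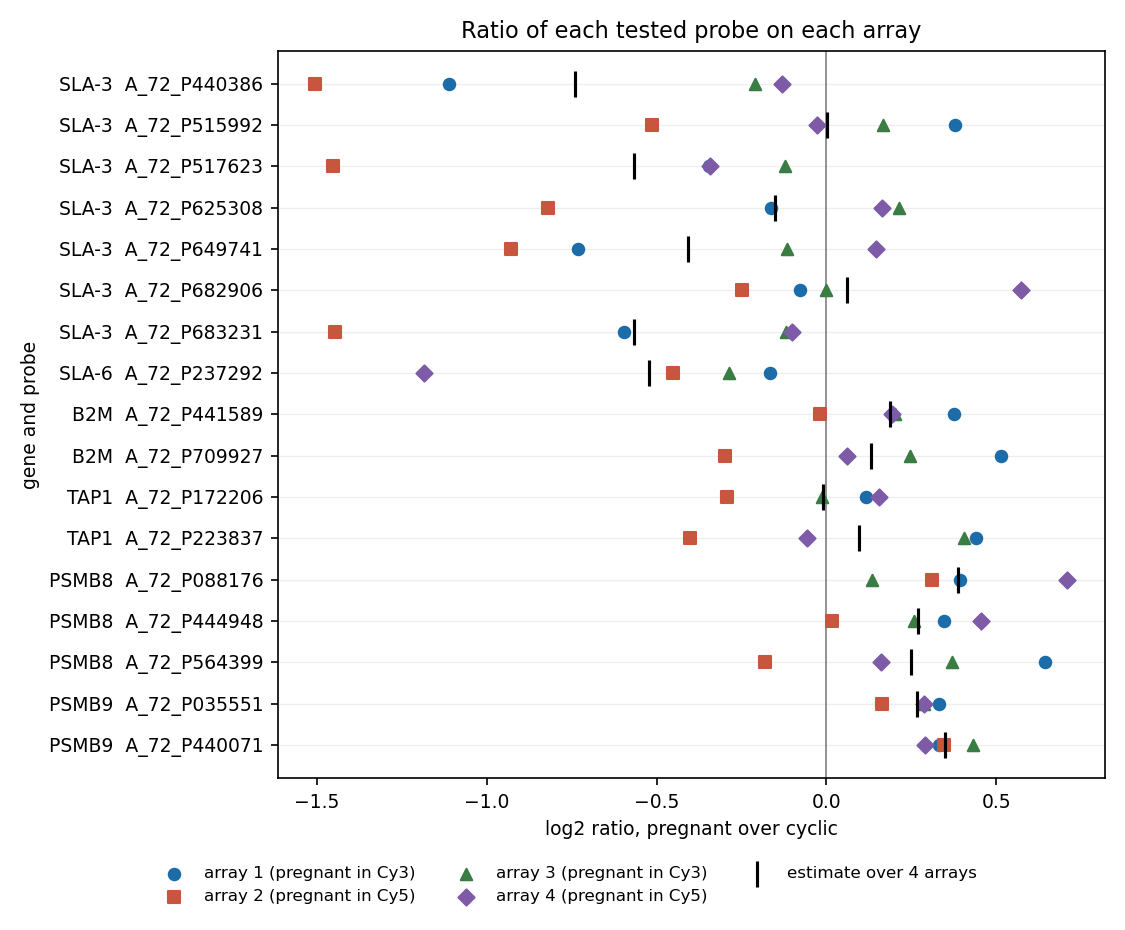
Log2 ratio of pregnant over cyclic (horizontal axis) for each of the 17 tested probes (vertical axis), with 1 symbol for each of the 4 arrays and a black bar at the estimate over 4 arrays. Array 2 holds the lowest value of all 7 SLA-3 probes, while the 4 values of each PSMB9 probe lie close together and above 0.

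SLA-3 is a classical class I heavy chain gene, and its 7 probes carry the same RefSeq record, NM_001097427. RefSeq lists the names SLA-1 and SLA-7 as synonyms of that gene, heavy chain genes share long stretches of near-identical sequence, and probe sequences were not used here. Which heavy chain transcripts each probe binds is therefore not known from these values, and the values are given for the SLA-3 record, not for SLA-3 alone. The 7 probes did not share 1 ratio. Probe A_72_P440386 was at -1.11, -1.50, -0.21 and -0.13 on arrays 1 to 4, with an estimate of -0.74 ± 0.27. It was lower in the pregnant animal on 4 of 4 arrays, far more so on arrays 1 and 2 than on arrays 3 and 4. Its normalized log2 intensity was 11.57, 11.54, 12.03 and 11.58 in the pregnant animals of arrays 1 to 4 and 12.68, 13.05, 12.25 and 11.72 in the cyclic animals. The pregnant animals lay close together apart from array 3, the cyclic animals of arrays 1 and 2 were the brightest of the 8, and the groups overlapped through the cyclic animal of array 4.

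Probe A_72_P517623 gave -0.35, -1.45, -0.12 and -0.34, with an estimate of -0.57 ± 0.20. Its mean was -0.23 with pregnant RNA in Cy3 and -0.90 with it in Cy5. Probe A_72_P683231 gave -0.60, -1.44, -0.12 and -0.10, with an estimate of -0.57 ± 0.24. Both were below 0 on 4 of 4 arrays, and array 2 stood far below the other arrays. Of these probes A_72_P440386 and A_72_P517623 passed the looser rule (unadjusted p = 0.0352 and 0.0312 by limma, adjusted p = 0.605 for both), and A_72_P683231 did not (unadjusted p = 0.0574 by limma). Without array 2 the estimates of the called pair were -0.40 and -0.29 and neither passed (unadjusted p = 0.147 and 0.0921 by limma). Without array 1 both stood at -0.51 and neither passed. With background parameters from all spots they stood at -0.68 and -0.41 and neither passed (unadjusted p = 0.0635 and 0.0528 by limma), and with the processed signals A_72_P517623 did not pass. With the pregnant animal in Cy3 on all arrays they stood at 0.08 and 0.33.

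Probe A_72_P649741 was at -0.73, -0.93, -0.12 and 0.14, with an estimate of -0.41 ± 0.21, and array 4 had the opposite sign to the rest. The remaining 3 probes of the record had estimates nearer 0. Probe A_72_P625308 was at -0.16, -0.82, 0.21 and 0.16, and its estimate was -0.15 ± 0.19. Probe A_72_P515992 was at 0.38, -0.51, 0.17 and -0.03, and its estimate was 0.0012 ± 0.13. Its sign followed the dye, with a mean of 0.27 with pregnant RNA in Cy3 and -0.27 with it in Cy5. Probe A_72_P682906 was at -0.08 on array 1, -0.25 on array 2, close to 0 on array 3 and 0.57 on array 4, and its estimate was 0.06 ± 0.16. Their 95% intervals ran from -0.62 to 0.31, from -0.31 to 0.32 and from -0.33 to 0.46, so differences of either sign remained possible.

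Set against each other after the values were seen, the 4 SLA-3 probes with the lowest estimates and the other 3 differed on each array. The median of the 4 was -0.66, -1.45, -0.12 and -0.12 on arrays 1 to 4, and the median of the other 3 was -0.08, -0.51, 0.17 and 0.16. The difference was -0.58, -0.93, -0.29 and -0.28. It was not tested, because the probes were ranked by the same values. All 7 probes had their lowest ratio on array 2. The range over the 4 arrays was between 0.82 and 1.37 for the 7 probes. Of all tested probes 29.8% had a range at least as wide as the narrowest of the 7, A_72_P682906, and 8.21% one at least as wide as the widest, A_72_P440386.

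**Figure D2:**
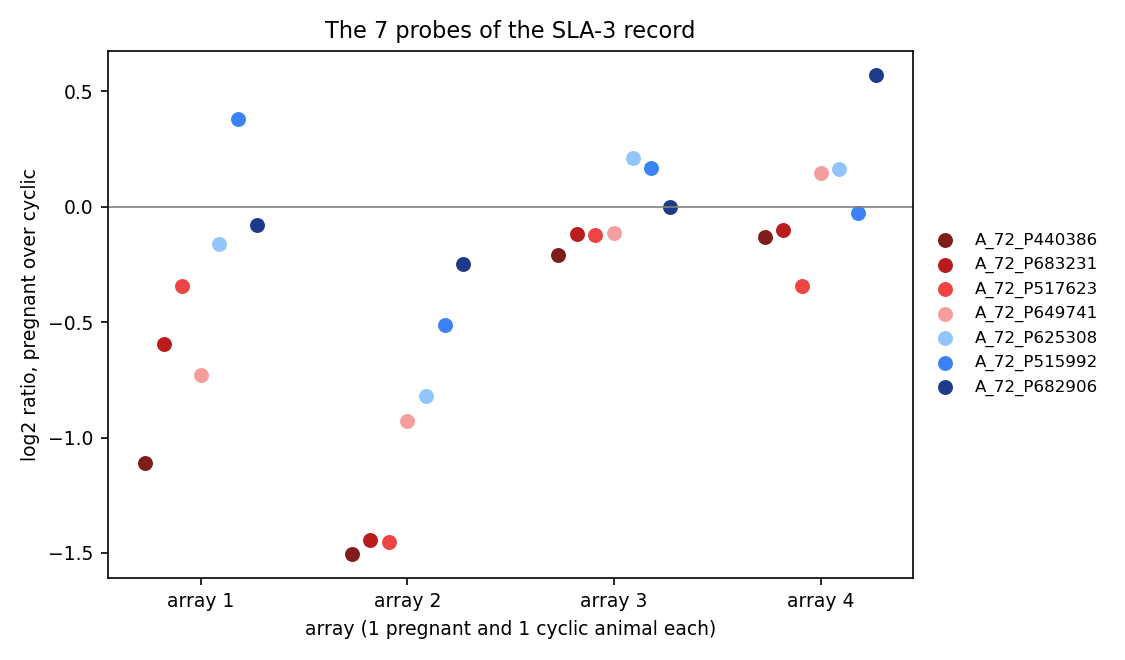
Log2 ratio of pregnant over cyclic (vertical axis) of the 7 probes of the SLA-3 record on each of the 4 arrays (horizontal axis), probes ordered from the lowest to the highest estimate within an array. On array 2 the probes spread from -1.50 to -0.25 and all lie below 0, while on array 4 they reach 0.57.

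SLA-6 encodes a nonclassical heavy chain, and its single probe A_72_P237292 was lower in the pregnant animal on 4 of 4 arrays. Its ratios were -0.17, -0.45, -0.29 and -1.18 on arrays 1 to 4, with an estimate of -0.52 ± 0.15 (limma, unadjusted p = 0.0144, adjusted p = 0.605). The mean was -0.23 with pregnant RNA in Cy3 and -0.82 with it in Cy5. Of all tested probes 7.73% were below 0 on 4 of 4 arrays, and 4 of the 17 member probes were. Array 4, not array 2, held the lowest value here, unlike in the SLA-3 probes. The intensity was 9.28, 9.48, 8.41 and 8.14 in the pregnant animals and 9.44, 9.94, 8.70 and 9.33 in the cyclic animals on the log2 scale. The groups overlapped, and on each array the cyclic animal was brighter than its pregnant partner. Without array 4 the estimate was -0.34 and the looser call ended (unadjusted p = 0.0521 by limma), and with background parameters from all spots the estimate was -0.17, under the fold of the looser rule. With the pregnant animal in Cy3 on all arrays it was 0.30.

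SLA-7, another nonclassical gene, was not well above background in any of the 8 channels (0 pregnant and 0 cyclic), so no ratio is given. SLA-5 and SLA-8 are further class I genes of the same region and were on the list of other antigen presentation genes. SLA-5 was at -0.48, -1.25, -0.15 and 0.10 on arrays 1 to 4, with an estimate of -0.45 ± 0.23. SLA-8 was at -0.03, -0.54, -0.20 and 0.26, with an estimate of -0.13 ± 0.16. Both had their lowest value on array 2 and their highest on array 4. Neither passed the looser rule, and their other tested probes, 1 and 3, had the same sign.

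B2M encodes beta-2 microglobulin, the invariant light chain that all class I molecules need to reach the surface. Probe A_72_P441589 was at 0.38, -0.02, 0.20 and 0.19 on arrays 1 to 4, and its estimate was 0.19 ± 0.11. Probe A_72_P709927 was at 0.51, -0.30, 0.25 and 0.06, with an estimate of 0.13 ± 0.12. Its mean was 0.38 with pregnant RNA in Cy3 and -0.12 with it in Cy5. Both were above 0 on 3 of 4 arrays, with array 2 below 0, and neither passed the looser rule (unadjusted p = 0.129 and 0.316 by limma). The level of A_72_P441589 averaged 16.74 ± 0.27 in pregnant and 16.55 ± 0.25 in cyclic animals (log2 intensity, SD, n = 4 each). The means differed by less than either SD, but these SDs leave out the pairing and also hold differences between arrays. The paired ratios of this probe had an SD of 0.16. The 95% intervals of both probes, from -0.08 to 0.45 and from -0.17 to 0.43, held 0.

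TAP1 is a subunit of the peptide transporter. Probe A_72_P223837, above background in all 8 channels, was at 0.44, -0.40, 0.40 and -0.06, with an estimate of 0.10 ± 0.11. Its sign followed the dye: the mean was 0.42 over the arrays with pregnant RNA in Cy3 and -0.23 over those with it in Cy5. With the pregnant animal in Cy3 on all arrays its estimate was 0.33 (limma, unadjusted p = 0.0241, adjusted p = 0.537). Under that reading it was the 1 member probe that passed the looser rule. Probe A_72_P172206 was dim, above background in 1 pregnant and 3 cyclic channels, and its estimate was -0.0092 ± 0.12. TAP2, the other subunit, was at -0.36, -0.46, -0.13 and 0.14, with an estimate of -0.20 ± 0.14, and its 1 other probe had the opposite sign. Neither gene passed the looser rule in the reported fit.

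PSMB9, also called LMP2, replaces the catalytic subunit PSMB6 when the immunoproteasome is assembled. Probe A_72_P440071 was at 0.33, 0.35, 0.43 and 0.29 on arrays 1 to 4, and its estimate was 0.35 ± 0.10, a fold of 1.27 with a 95% interval from 1.07 to 1.51. Probe A_72_P035551 was at 0.33, 0.16, 0.29 and 0.29, with an estimate of 0.27 ± 0.10. All 8 values were above 0, in both orientations of the dyes. Above 0 on 4 of 4 arrays were 4 of the 17 member probes and 6.79% of all tested probes. Both probes passed the looser rule (unadjusted p = 0.0139 and 0.0385 by limma, adjusted p = 0.605 for both).

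The PSMB9 ratios differed little between arrays. Their range was 0.14 for A_72_P440071 and 0.17 for A_72_P035551, and 98.0% and 96.8% of all tested probes had a range at least as wide. The levels themselves differed more: A_72_P440071 had a log2 intensity of 10.695, 10.918, 10.853 and 10.224 in the pregnant animals and 10.364, 10.573, 10.421 and 9.934 in the cyclic animals. The arrays ranked alike in both groups, so a spread of animals cannot be told apart from a spread of arrays. The groups overlapped, and the pregnant animal exceeded its cyclic partner on every array, by amounts close to each other. With any 1 array left out the estimate of A_72_P440071 stayed between 0.32 and 0.37, and its unadjusted p stayed under 0.05 without array 4 alone (0.0417 by limma), against 0.0526 without array 1, 0.0526 without array 2 and 0.0824 without array 3. Its call also ended when all spots set the background parameters, at 0.23, and under median centring, at 0.30. The call of A_72_P035551 ended with any 1 array left out, at estimates between 0.24 and 0.30 (unadjusted p between 0.0714 and 0.154 by limma). It also ended with median centring, a background offset of 10, the processed signals and parameters from all spots. With the pregnant animal in Cy3 on all arrays A_72_P440071 stood at 0.03 and A_72_P035551 at 0.04.

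PSMB8, or LMP7, replaces PSMB5 in the immunoproteasome. Probe A_72_P088176 was at 0.39, 0.31, 0.13 and 0.71, with an estimate of 0.39 ± 0.12 (limma, unadjusted p = 0.0210, adjusted p = 0.605). It was above 0 on 4 of 4 arrays and highest on array 4. Probe A_72_P444948 was at 0.34, 0.02, 0.26 and 0.45, also above 0 on 4 of 4 arrays, with an estimate of 0.27 ± 0.12 that did not pass the looser rule. Its log2 intensity was 9.90, 9.68, 9.92 and 9.69 in the pregnant animals and 9.56, 9.66, 9.66 and 9.24 in the cyclic animals. This was the 1 member probe whose groups did not overlap, although by a small gap. By comparison, 1.07% of all tested probes did not overlap with pregnant animals higher, 1.04% with pregnant animals lower and 2.11% in either direction. Probe A_72_P564399 was at 0.64, -0.18, 0.37 and 0.16, with an estimate of 0.25 ± 0.12. Its mean was 0.51 with pregnant RNA in Cy3 and -0.01 with it in Cy5.

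The call of A_72_P088176 ended without array 1, at 0.32, and without array 4, at 0.29 (unadjusted p = 0.108 and 0.0983 by limma). The call also ended with background parameters from all spots, at 0.13, and with median centring, at 0.26. With the pregnant animal in Cy3 on all arrays it stood at -0.12. In the RefSeq annotation of the Sscrofa11.1 assembly PSMB8, TAP1 and PSMB9 are consecutive among the named protein-coding genes, next to TAP2.

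**Figure D3:**
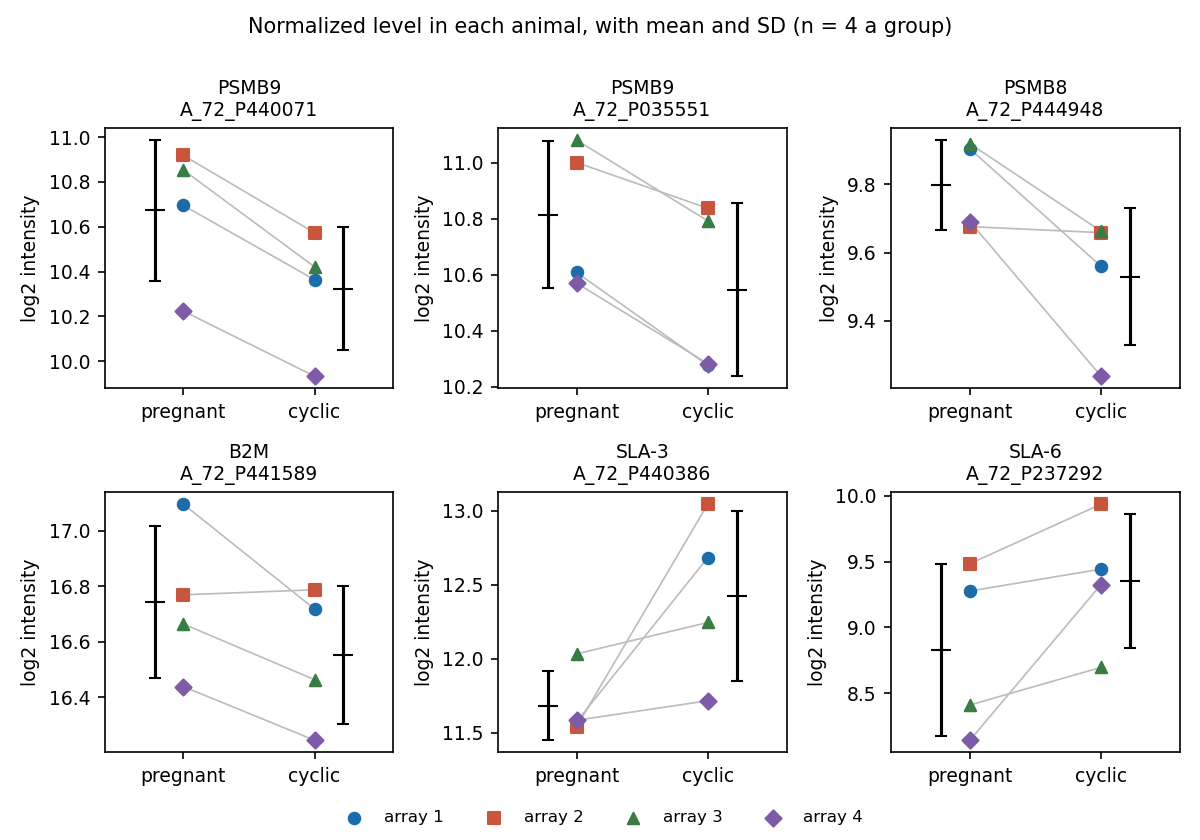
Normalized log2 intensity (vertical axis, a scale of its own in each panel that does not start at 0) in each pregnant and each cyclic animal for 6 probes, with a grey line joining the animals of 1 array and a black mark for the mean ± SD of 4 animals. In both PSMB9 panels every line is higher at its pregnant end, in the SLA-3 and SLA-6 panels every line is higher at its cyclic end, and the groups overlap in every panel but that of PSMB8. The SLA-3 panel shows A_72_P440386, which had the lowest estimate of the 7 SLA-3 probes. The PSMB8 panel shows A_72_P444948, and the groups overlapped in the other PSMB8 probes.

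**Figure D4:**
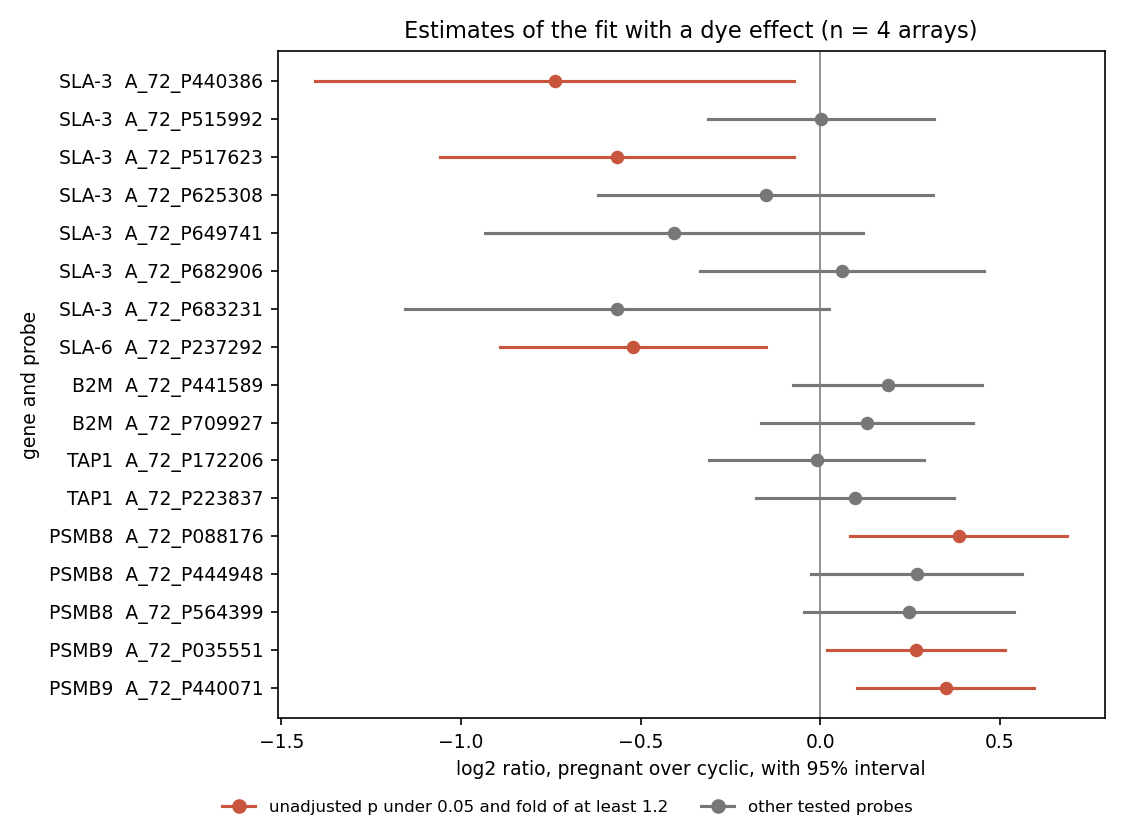
Estimated log2 ratio of pregnant over cyclic with its 95% interval (horizontal axis) for the 17 tested probes (vertical axis), from the limma fit with a dye effect over 4 arrays. The 6 probes in red passed the looser rule, 3 above and 3 below 0, and none passed the adjusted threshold.

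The genes of the standard proteasome had estimates close to 0. Of 17 listed genes for constitutive subunits, assembly factors and other activators, 8 were tested, 7 had an estimate above 0 (PSMB6 by 1.0e-05) and 0 passed the looser rule in either direction. Their median was 0.03. PSMB6, the subunit that PSMB9 replaces, was at -0.11, -0.0060, 0.12 and 0.0022 on arrays 1 to 4, and its 2 other probes had estimates below 0. PSMB7, which PSMB10 replaces, stood at 0.0025 ± 0.10. PSMA4, an outer ring subunit, had the highest estimate at 0.12 ± 0.17, with 1.00 on array 1 and -0.36 on array 4. The difference between the inducible and the constitutive subunits was not tested.

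Other genes of antigen presentation also stayed below the looser rule. Of 23 listed genes 12 were tested, 3 had an estimate above 0 and 9 below, and 0 passed in either direction, with a median of -0.12. PSMB10, the remaining inducible catalytic subunit, stood at 0.03 ± 0.10, and the proteasome activator subunits PSME1 and PSME2 stood at -0.05 ± 0.14 and 0.03 ± 0.10. CALR, the chaperone calreticulin of the loading complex, was at -1.16, -1.01, -0.05 and 0.17, with an estimate of -0.51 ± 0.26. Like the SLA-3 probe A_72_P440386, it was far below 0 on arrays 1 and 2 alone. CANX, calnexin, which holds new heavy chains, was at -0.72, -0.27, 0.09 and 0.04. NLRC5, the transactivator of class I genes, stood at -0.12 ± 0.13, with -0.52 on array 2.

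Regulators through which interferons act on these genes varied in direction. Of 13 listed genes 10 were tested, 8 had an estimate above 0, 1 passed the looser rule as higher and 1 as lower in pregnant animals, and the median was 0.10. IFNGR2, a chain of the interferon-gamma receptor, was at 0.32, 0.25, 0.34 and 0.19 on arrays 1 to 4, with an estimate of 0.27 ± 0.10, above 0 on 4 of 4 arrays. IRF1, an activator of class I and immunoproteasome genes, was at 0.51, 0.25, 0.35 and -0.28, with an estimate of 0.21 ± 0.13, and its 1 other probe had the opposite sign. IRF7 passed as lower, at -0.68 ± 0.16. None passed the adjusted threshold (limma, adjusted p = 0.605 for IFNGR2 and IRF7, with 2 at an unadjusted p under 0.05).

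Immune and vascular cells carry more class I molecules than most other cells, so their markers are given beside these results. Of the T cell and natural killer cell markers 7 of 14 were tested, 5 had an estimate above 0 and 0 passed the looser rule, and CD2, CD3D, CD4 and GZMA did not pass the filter on dim probes. Of those tested, CD3G and CD8A were dim, above background in 2 pregnant and 2 cyclic channels, as was LCK, in 2 and 3. The log2 of the summed intensity of the 7 tested markers lay between 11.48 and 12.00 in pregnant and between 11.57 and 12.13 in cyclic animals. Of the macrophage and other myeloid markers 8 of 13 were tested and 2 had an estimate above 0. AIF1 passed as higher at 0.38 ± 0.14, and the summed level lay between 12.95 and 13.75 in pregnant and between 13.07 and 13.69 in cyclic animals. Of the B cell markers CD79A alone of 3 was tested and passed as lower at -0.69 ± 0.24, and its level lay between 7.63 and 8.68 in pregnant and between 8.61 and 9.50 in cyclic animals. Its ratio was at -1.21, -1.20, -0.44 and 0.07 on arrays 1 to 4, and MS4A1 did not pass the filter.

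Of the endothelial markers 3 of 7 were tested, 1 had an estimate above 0 and 2 below, and 0 passed. CDH5 stood at 0.51 ± 0.25, with its 1 other probe of the opposite sign, PECAM1 at -0.19 ± 0.11 and VWF at -0.24 ± 0.11. The summed levels of the endothelial markers lay between 12.01 and 12.43 in pregnant and between 11.98 and 12.80 in cyclic animals. Of the pituitary endocrine markers 9 of 10 were tested, 2 had an estimate above 0 and LHB passed as lower. Their summed level lay between 19.74 and 20.41 in pregnant and between 20.07 and 20.67 in cyclic animals. Single genes could differ far more within a pair, as TSHB did at -1.67, 4.48, -3.02 and -4.20 on arrays 1 to 4. Of the posterior lobe markers OXT stood at -0.36 ± 0.16 and did not pass. Erythroid markers (0 of 2) had no named probe. The part of any of these cells in the ratios of the class I and immunoproteasome genes was not tested.

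The median ratio of the 17 tested member probes was 0.33, -0.30, 0.17 and 0.15 on arrays 1 to 4, where the medians of all tested probes were -0.02, -0.0062, -0.02 and 0.01. Of 2332 other named genes with 4 array values, FAM213B, SCARB2, LGALS4, OPTN and ADA2 had the ratios closest to that median profile. The root mean square difference over 4 arrays was 0.05 for FAM213B, 0.05 for SCARB2, 0.06 for LGALS4, 0.06 for OPTN and 0.08 for ADA2. That profile averages genes of unlike direction, since array 1 was at -0.35 for the SLA-3 probes and at 0.38 for the B2M, TAP1, PSMB8 and PSMB9 probes.

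**Figure D5:**
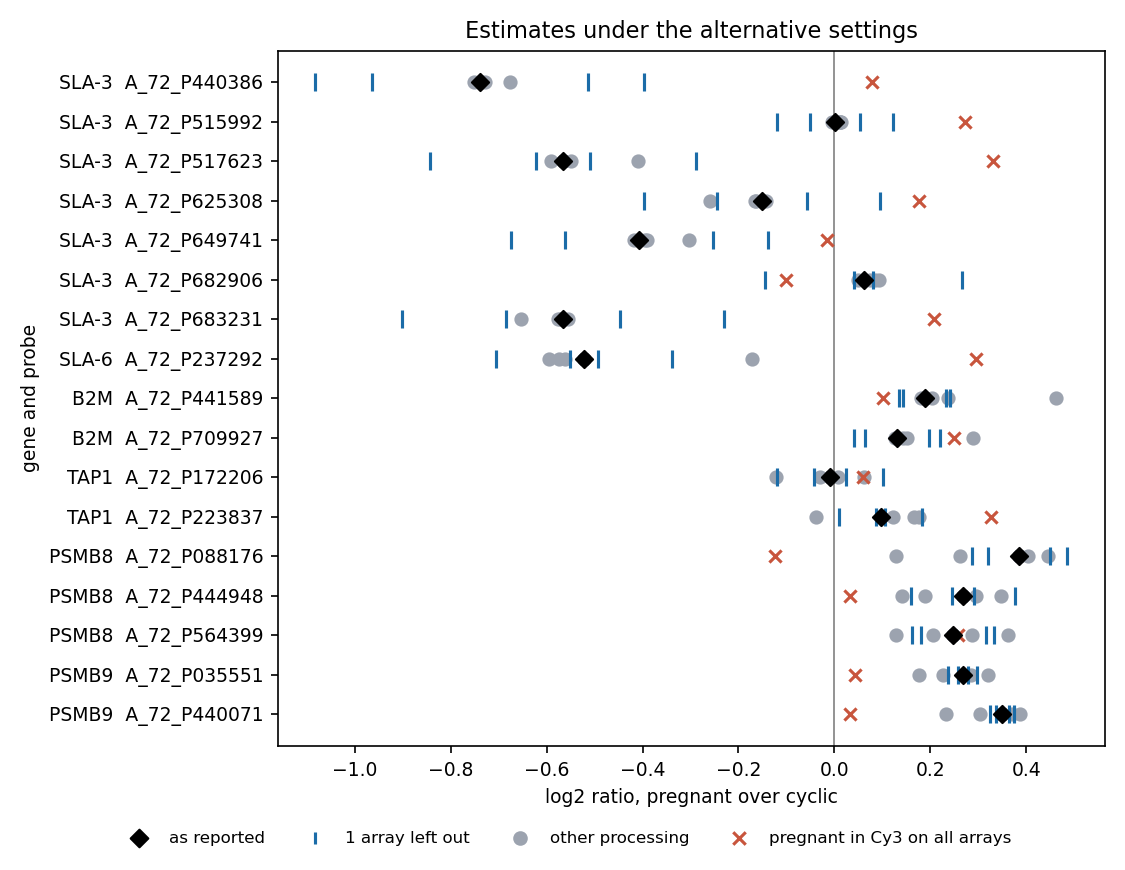
Estimated log2 ratio of pregnant over cyclic (horizontal axis) for each tested probe (vertical axis) as reported (diamond), with 1 array left out (bar), under other processing (grey point) and with the pregnant animal assigned Cy3 on all arrays (cross). Both PSMB9 probes lie above 0 in every setting shown, while 6 of the 8 SLA probes have their cross on the other side of 0 from their diamond.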

How the data were processed

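RNA integrity numbers lay between 7.5 and 10, and 825 ng of cRNA in each dye went onto an array, per the labels' protocols. Per the file headers, Agilent Feature Extraction 10.7.3.1 read the 4 arrays, which lay on 1 slide under 1 scan time. The authors deposited, for each spot, median intensity of foreground and local background, processed intensity, and a log10 ratio of processed red over green. The value table deposited by the authors contains log2 ratios made from the processed signals. Set against the scanner values of the 43553 probes spotted once, these equal log2 of processed red over green within 0.001, with the sign turned on arrays 1 and 3, hence pregnant over cyclic if the label fields hold. Column medians are 0.15, -0.01, 0.06 and -0.07, with no added centring.

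The computation used limma 3.58.1 under R 4.3.3, with jsonlite 2.0.0 and data.table (1.17.8). Median foreground and background went through normexp (offset 50), with parameters estimated without spots marked by the scanner software as outliers, then loess (span 0.3) with 1417 control spots at weight 0. Between 26 and 63 outlier spots an array were dropped and repeated spots averaged. Each tested probe was fitted by lmFit and eBayes with a dye effect. Of these probes 65 lacked an array, none of them a member. Levels of animals follow Aquantile scaling. Symbols came from RefSeq accessions (Sscrofa11.1) and reached 6700 probes with 1 symbol each. Other probes are unnamed here, and some may belong to these genes. Listed genes are given by their brightest tested probe. All members are named, other genes come from lists or the likeness rule, and members and lists were chosen with earlier results of these data known. Genes that are not reported here were left out of the lists and their counts. The fit was tested on simulated data. Figures were drawn with matplotlib 3.10.9.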

Additional observations from a re-analysis of the deposited data

Results flagged for a closer look

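The SLA-3 probe A_72_P517623 was at -1.45 on array 2, far below its other arrays at -0.35, -0.12 and -0.34, a gap wider than Dixon's 95% critical value for 4 values. Chance flags about 1 in 20 groups, and the 17 tested member probes were examined.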

How the results depend on the processing

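No member probe passed the adjusted threshold under any of the 14 alternatives (0 in each). Over all probes 3 passed it with a background offset of 10 and 4 with separate channels, and with 1 array left out between 0 and 8 did. The looser count over all probes was 766 with background parameters from all spots, and between 928 and 3247 with 1 array left out. It was 2114 with Cy3 for all pregnant animals, 1571 with the dye effect alone left out and 1674 with median centring. Among the brightest probes of each gene it was 1676 of 22282. Of member probes 1 passed the looser rule with Cy3 for all pregnant animals and no dye effect in the fit (7 with the dye effect alone left out), 1 with parameters from all spots, 3 with median centring and 2 among the brightest probes of each gene, and between 1 and 6 with 1 array left out. The brightest probes alone leave fewer members to count. The median member ratio lay between -0.12 and 0.18 with 1 array left out, and was 0.14 over the brightest probes. Estimates of single member probes under an alternative kept their sign and their side of the adjusted threshold in 208 cases and changed sign in 18. With Cy3 for all pregnant animals SLA-3 probes A_72_P440386, A_72_P517623, A_72_P625308, A_72_P682906 and A_72_P683231 stood at 0.079, 0.33, 0.18, -0.10 and 0.21, SLA-6 at 0.30, TAP1 probe A_72_P172206 at 0.060 and PSMB8 probe A_72_P088176 at -0.12, since that reading turns arrays 2 and 4. The dim TAP1 probe also stood at 0.0069 with parameters from all spots, at 0.062 with median centring, and between -0.12 and 0.10 with 1 array left out. With median centring SLA-3 probe A_72_P515992 stood at -0.0047 and TAP1 probe A_72_P223837 at -0.039. With 1 array left out A_72_P515992 lay between -0.12 and 0.12, A_72_P625308 between -0.40 and 0.094 and A_72_P682906 between -0.14 and 0.27. The cause of these changes was not tested. Each array pairs 1 pregnant with 1 cyclic animal, so the reported fit is a paired one. With separate channels and the array as a random block 9 member probes passed the looser rule, 4 higher and 5 lower. Over all probes 2639 of 25138 passed it in that fit, against 1983 of 25203 in the reported fit. Signal over background limits the dim TAP1 probe, whose ratios rest on 4 of 8 channels above background, and left the SLA-7 probe untested.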
